A study of Mus musculus with 11 samples.

Results

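The genes described here code for enzymes that modify drugs, other foreign compounds and aldehydes. They were chosen by gene name and belong to 9 families, namely the cytochromes P450 of CYP1, CYP2, CYP3 and CYP4, the UDP-glucuronosyltransferases (UGT), the sulfotransferases (SULT), the aldehyde dehydrogenases (ALDH), the flavin-containing monooxygenases (FMO) and the carboxylesterases (CES). Of the 24849 genes in the deposited count table, 169 carried such a name, and 68 of these reached at least 10 counts in 3 or more of the 11 libraries. Among the 101 names left out, 58 had no count in any library, and the highest count of any of them in a library was 46. The 68 members comprised 16 ALDH, 13 CYP2, 12 UGT, 10 CYP4, 6 SULT, 4 CES, 3 CYP3 and 3 FMO genes and 1 CYP1 gene. *Fmo2* was the member closest to the limit, with 8, 5, 18 and 29 counts in the KO, 4, 10 and 5 in the WT and 7, 0, 0 and 0 in the KI libraries. *Ces2f*, *Cyp2f2*, *Cyp4a30b*, *Ugt1a2* and *Ugt2b38* reached 10 counts in 2 libraries and were left out. In 8 members (*Ces2a*, *Cyp2c55*, *Cyp2d26*, *Cyp3a11*, *Cyp4a32*, *Cyp4f37*, *Fmo2* and *Ugt2b1*) the limit would have been missed without the libraries of a certain group. For *Fmo2* this held for the KO and for the WT. The level in such a group is thus part of how these members were chosen.

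In the liver, foreign compounds and many steroids, fatty acids and bile acids are processed in stages. Cytochromes P450 and FMO enzymes of the endoplasmic reticulum oxidize them and carboxylesterases hydrolyse esters and amides, whereas UGT and SULT enzymes couple glucuronic acid or sulfate to the products, which makes them water-soluble. ALDH enzymes oxidize aldehydes, which arise from retinol, ethanol, amino acids and peroxidized lipids, to the corresponding acids. Transcription of these genes in hepatocytes depends on liver factors such as HNF4A and C/EBPα and on ligand-activated receptors such as AHR, PXR, CAR and PPARα.

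AML12 (alpha mouse liver 12) is a mouse hepatocyte line, and the RNA sequenced was polyadenylated. The KO cells (4 libraries, numbered 5 to 8) carry the genotype TXNDC5 Knockdown in the labels, whereas the study's methods describe stable clones obtained by CRISPR/Cas9 cutting in the fifth exon of *Txndc5*, insertion of a puromycin resistance gene and puromycin selection. The WT cells (3 libraries, numbered 5-6, 7 and 8) are the AML12 cells without either change. The KI cells (4 libraries, numbered 5 to 8), labelled TXNDC5 Knockin, are described by the submitters as made to overexpress TXNDC5 from the ROSA26 safe-harbour locus, and the promoter of that construct is not given in the sources used here. TXNDC5 is a protein disulfide isomerase of the endoplasmic reticulum. The labels do not tell clones apart, so that an edited line and its genotype cannot be told apart, and nothing states that the numbered libraries came from separate cultures. The p-values therefore measure the spread between these libraries, which may be technical.

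Total counts were between 30380360 and 38422243 in the KO, 29840366 and 30364098 in the WT, and 32360709 and 35335070 in the KI libraries. Values below are counts scaled to a common library size with TMM factors (CPM), given in the order of the replicate numbers. *Txndc5* itself stood at 10.2, 8.50, 12.9 and 9.39 CPM in the KO, 147, 138 and 143 in the WT, and 158, 180, 176 and 163 in the KI libraries. The KO libraries thus lay far below the WT libraries, with a log2 fold change of -3.82. The KI libraries all lay above the WT libraries, but with a log2 fold change of 0.24 (SE 0.12, edgeR's adjusted p = 0.136) this difference did not pass the test; it did when counts were scaled by library totals instead of TMM (0.57, edgeR's adjusted p = 0.00623).

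The libraries expressed hepatocyte genes, but 5 marker genes of drug metabolism in mature liver were at 0 or low. Of 12 hepatocyte markers, *Apoa2* alone was at or under 3 counts in every library, and the lowest and highest of their summed levels were 8035 and 10035 CPM for KO, 4963 and 6796 for WT, and 7096 and 8616 for KI libraries. *Alb* had the most counts in the KO and the keratin gene *Krt8* in the WT and KI. Against WT, 6 of the 10 markers tested were higher and 2 lower in the KO, and 5 of 9 were higher and 1 lower in the KI, or 80 and 66.7%, where 55.1 and 42.3% of all genes tested were called. *Alb*, albumin, averaged 4115 ± 524 CPM (SD, n = 4) in the KO, 513 ± 198 (SD, n = 3) in the WT and 246 ± 60.5 (SD, n = 4) in the KI libraries, and was the 1 marker lower in the KI. *Apob*, of lipoproteins, was higher in both lines, by log2 fold changes of 0.66 and 1.21. The 2 markers lower in the KO were *Ttr* (log2 fold change -0.93) and *Serpina1a* (-3.775). The keratin genes *Krt8* and *Krt18*, not called in the KO, averaged 2839 and 1024 CPM in the WT and held much of the summed level there. In contrast, *Cyp2e1* and *Cyp1a2*, P450 enzymes of adult liver, had no count in any library, *Ces3a* stayed at or under 3 counts, and *Cyp3a11*, a major drug-oxidizing P450 of mouse liver, did not exceed 1.32 CPM, and *Ugt2b1* averaged at most 0.273 CPM in a group. Among markers of other cell types, the cholangiocyte genes *Krt7*, *Spp1* and *Sox9* were lower in the KO (log2 fold changes against WT of -3.40, -3.38 and -0.47) and *Krt19* was higher (0.49), while *Epcam* had no count. The 5 cholangiocyte markers together lay between 1339 and 1504 CPM in KO libraries, 2974 and 4379 in WT libraries, and 2604 and 3083 in KI libraries, with *Spp1* having the most counts in the WT and KI and *Krt19* in the KO. The 8 fibroblast or stellate markers summed to 1169 to 1284, 689 to 897 and 689 to 796 CPM, with *Vim* the most abundant and *Col1a2*, *Col3a1*, *Pdgfrb* and *Lrat* at or under 3 counts. Macrophage markers reached at most 9.20 CPM and endothelial markers 0.425 CPM in sum. The part of these differences in the results below was not tested. In such bulk libraries, fewer expressing cells and less RNA per cell cannot be told apart.

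The 68 members took a small share of the counts, 0.329 to 0.370% in the KO, 0.286 to 0.303% in the WT and 0.218 to 0.248% in the KI libraries. By this share, which uses no TMM factor, every KO library lay above every WT library. The TMM factors were 1.05 to 1.13 in the KO and 0.744 to 0.947 in the WT libraries. The most abundant entry took 4.32 to 6.44% of the counts in the KO and 11.3 to 17.1% in the WT libraries. In CPM, the members' summed level was 3192 ± 246 (SD, n = 4) in the KO, 3575 ± 336 (SD, n = 3) in the WT and 2166 ± 35.4 (SD, n = 4) in the KI libraries, so that the KI libraries lay below all others. Without *Aldh1a1* the sum was 2741 ± 183 in the KO, 2605 ± 152 in the WT and 1742 ± 57.3 in the KI. KO and WT libraries overlapped in the sum with and without that gene. A few genes carried much of it: *Aldh1a1*, *Sult1d1* and *Sult1a1* held 44.8% of the members' CPM in the WT and 31.4% in the KO, and *Aldh1a1*, *Aldh3a2* and *Sult1c2* held 34.8% in the KI.

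The first question was how these genes differed between the KO and WT cells. In this comparison 65 members had enough counts to be tested, of which 18 were higher and 15 lower in the KO at an adjusted p under 0.05 (edgeR's quasi-likelihood test), or 50.8%. Of all 13359 genes tested, 55.1% were called, 26.7% as higher and 28.4% as lower, so that the members' share was near that of genes in general. In 34 of the 65 members the KO and WT libraries did not overlap, against 55.3% of all genes tested. The median log2 fold change of the members was -0.04, and that of all genes -0.03. Without the 8 members that would have missed the count limit without the libraries of a certain group, 16 were higher and 15 lower of 60. Scaled by library totals instead, the median of all genes moved to 0.38 and the members' calls to 26 higher and 11 lower, or 70.3% higher among those called, against 72.8% among all called genes.

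Between the KI and WT cells the members were called mostly in one direction. Of 61 members tested, 4 were higher and 30 lower in the KI, or 55.7%, against 42.3% of the 13534 genes tested, 21.2% higher and 21% lower. The libraries of 30 members did not overlap, against 44.7% of all genes. The median log2 fold change was -0.78 for the members and -0.02 for all genes. Under library totals, which moved the median of all genes to 0.31, there were 7 members higher and 21 lower; 25.0% of the called members were then higher, against 76.3% of all called genes.

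The KO and KI cells were also compared directly, which tests the difference between both edited lines without the WT libraries that the other comparisons share. Of 64 members tested, 33 were higher and 12 lower in the KO than in the KI, or 70.3%, against 54% of the 13269 genes tested, 27% in either direction. The members' median log2 fold change was 0.83 and that of all genes 0.00. The groups did not overlap in 44 members, against 48.6% of all genes. Library totals gave 35 higher and 11 lower, or 76.1% higher among those called, against 56.1% among all called genes. The heatmap of the members and the plot of their fold changes show these differences gene by gene.

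**Figure D1:**
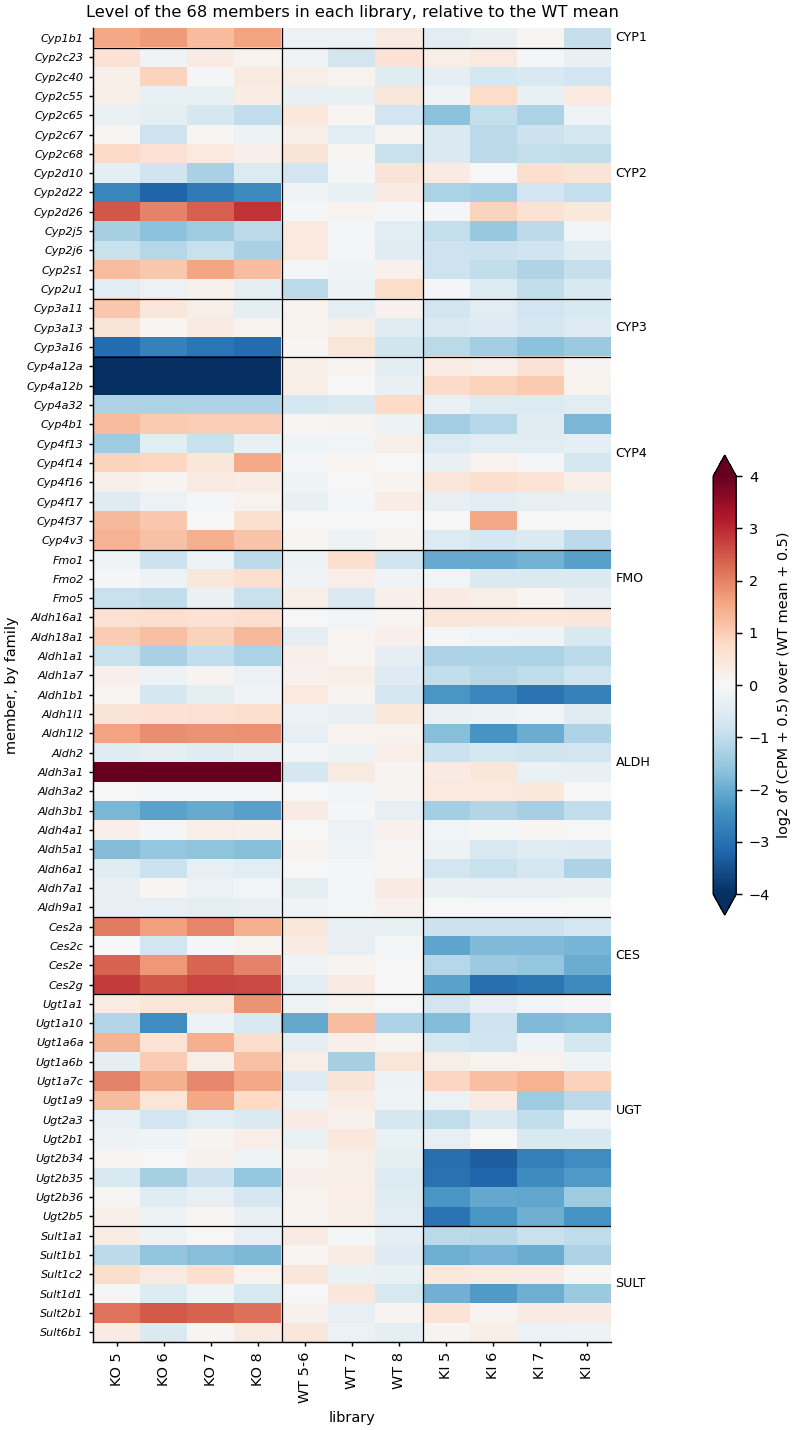
Level of each of the 68 members (lines, grouped by family) in each of the 11 libraries (columns: KO, WT, KI). Shown is the log2 ratio of its CPM to the mean of the WT libraries, on a colour scale that ends at -4 and 4. A small constant was added to both values, which shrinks the ratios of members with few counts. *Aldh3a1*, *Ces2e*, *Ces2g* and *Sult2b1* are among those high in the KO, and *Cyp4a12a* and *Cyp4a12b* among those low in the KO. *Aldh1b1*, *Ces2g*, *Ugt2b34* and *Ugt2b35* are among those low in the KI columns.

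**Figure D2:**
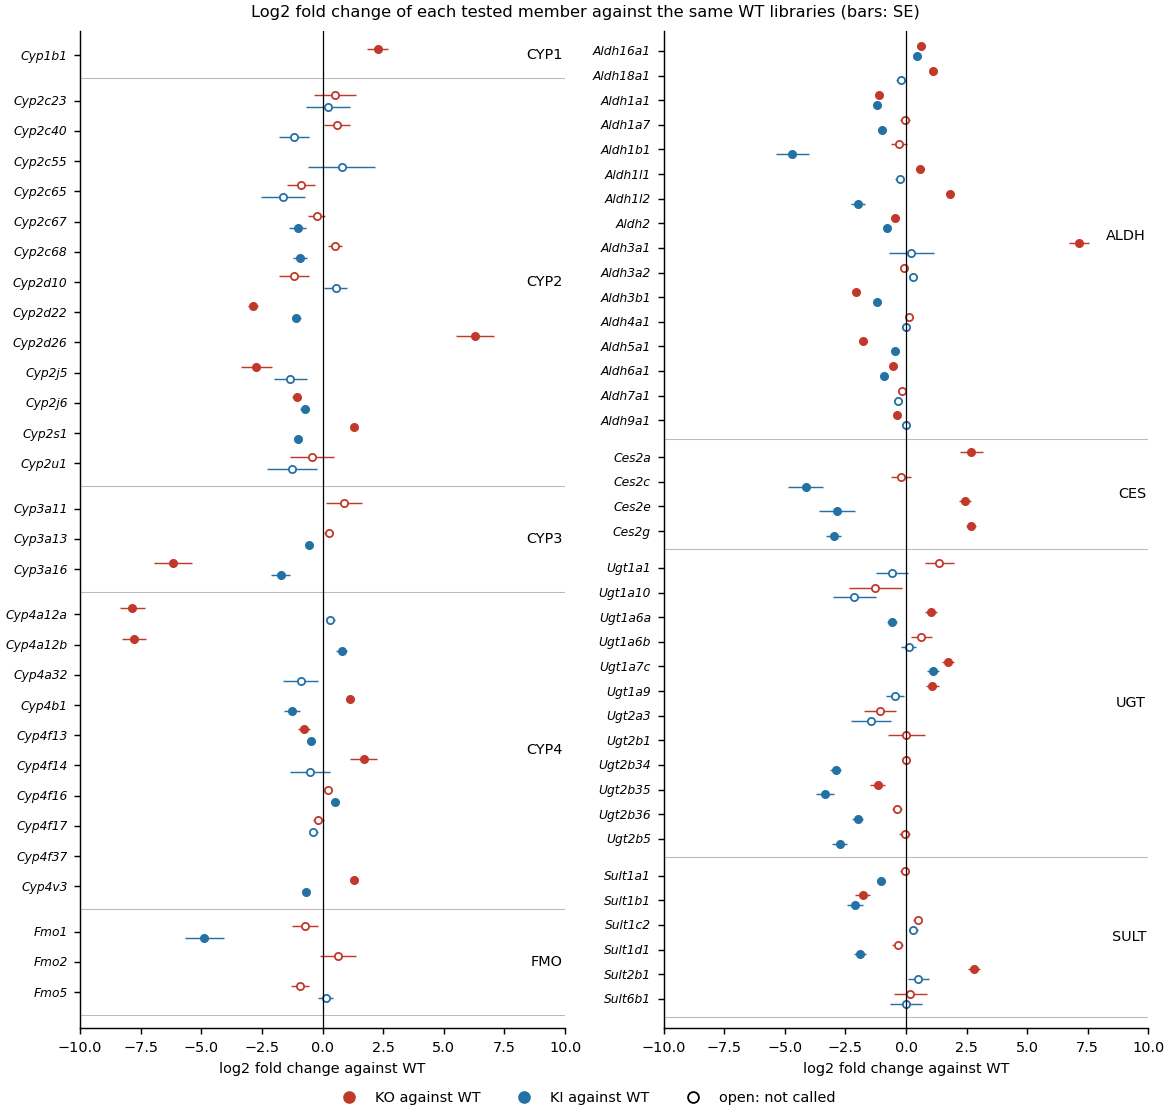
Log2 fold change of the members against WT in the KO (red) and KI (blue) libraries, with bars of 1 standard error; filled points passed the test and open points did not. The red points spread to both sides of 0 (18 higher, 15 lower), whereas 30 of the 34 filled blue points lie below 0; both comparisons use the same 3 WT libraries.

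Of the 4 carboxylesterases, 3 were higher in the KO than in the WT, and the 3 that could be tested in the KI were lower there, with *Ces2a* a member through the KO libraries alone; of all genes tested, 26.7% were higher in the KO and 21% lower in the KI. All 4 measured members belonged to CES2, enzymes of the endoplasmic reticulum that hydrolyse ester drugs and acylglycerols, and their genes lie next to each other on chromosome 8. The summed CES level was 95.4, 74.3, 87.6 and 83.7 CPM in the KO, 12.6, 17.5 and 14.3 in the WT and 2.57, 1.30, 1.39 and 1.64 in the KI libraries, and none of the 3 groups overlapped. *Ces2g* carried most of it, at 80.7, 65.1, 73.6 and 72.6 CPM in the KO, 8.29, 14.4 and 11.1 in the WT and 2.18, 0.937, 1.07 and 1.49 in the KI libraries. Every KO library was above every WT library, and every KI library below. The log2 fold change of *Ces2g* was 2.67 (SE 0.19, edgeR's adjusted p = 1.75e-06) in the KO and -2.99 (SE 0.30, edgeR's adjusted p = 1.23e-05) in the KI against WT.

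*Ces2e* followed the same order, with 9.67, 6.13, 9.33 and 7.32 CPM in the KO, 1.29, 1.65 and 1.49 in the WT and 0.392, 0.221, 0.183 and 0 in the KI libraries. Its log2 fold changes against WT were 2.43 (SE 0.25, edgeR's adjusted p = 1.79e-05) and -2.86 (SE 0.74, edgeR's adjusted p = 0.00735). *Ces2a* was scarcer, at 3.39, 2.37, 3.03 and 1.96 CPM in the KO and 0.758, 0.242 and 0.248 in the WT libraries, a log2 fold change of 2.69 (SE 0.48, edgeR's adjusted p = 0.000725), and only KI 8 of the KI libraries held counts of it, 2 in all. Its ratio of KO to KI was 189 with a 95% counting interval from 52.1 to 1570.0, and its ratio of WT to KI was 28.5 (7.22 to 246). *Ces2c* was at 1.63, 0.770, 1.56 and 1.86 CPM in the KO and 2.23, 1.21 and 1.52 in the WT libraries, which overlapped, and at 0, 0.138, 0.131 and 0.0912 in the KI libraries, all lower. Its log2 fold change against WT was -0.20 (SE 0.40, edgeR's adjusted p = 0.703) in the KO and -4.13 (SE 0.72, edgeR's adjusted p = 0.000643) in the KI. In the direct comparison all 4 were higher in the KO than in the KI, by log2 fold changes of 3.96 to 7.26, where 27% of all genes tested were higher. The largest was that of *Ces2a*, a member through the KO libraries alone.

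The 250 bases before the start of these 4 neighbours, read from RefSeq's promoter windows (GRCm38.p6, plus strand, 5′ to 3′), are shown because the 3 of these genes tested in the KI against WT were all lower there; 56 of the 68 members had such a window. The windows are chr8:104733753-104734002 for *Ces2a*, chr8:104846818-104847067 for *Ces2c*, chr8:104926010-104926259 for *Ces2e* and chr8:104961468-104961717 for *Ces2g*. Capitals mark a match to one of 4 motifs searched on both strands.
Ces2a: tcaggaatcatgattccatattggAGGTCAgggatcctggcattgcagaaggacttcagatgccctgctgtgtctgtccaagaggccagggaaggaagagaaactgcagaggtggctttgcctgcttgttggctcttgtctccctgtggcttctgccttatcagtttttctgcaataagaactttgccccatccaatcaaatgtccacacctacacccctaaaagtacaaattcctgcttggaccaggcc
Ces2c: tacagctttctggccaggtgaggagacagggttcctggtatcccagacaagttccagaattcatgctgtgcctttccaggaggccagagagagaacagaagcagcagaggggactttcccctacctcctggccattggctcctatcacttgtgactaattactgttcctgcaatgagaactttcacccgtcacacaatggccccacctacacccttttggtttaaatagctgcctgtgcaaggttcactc
Ces2e: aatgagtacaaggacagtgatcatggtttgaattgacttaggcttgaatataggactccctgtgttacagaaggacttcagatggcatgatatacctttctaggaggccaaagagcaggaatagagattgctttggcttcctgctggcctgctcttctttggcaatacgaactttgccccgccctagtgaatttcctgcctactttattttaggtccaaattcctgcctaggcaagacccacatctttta
Ces2g: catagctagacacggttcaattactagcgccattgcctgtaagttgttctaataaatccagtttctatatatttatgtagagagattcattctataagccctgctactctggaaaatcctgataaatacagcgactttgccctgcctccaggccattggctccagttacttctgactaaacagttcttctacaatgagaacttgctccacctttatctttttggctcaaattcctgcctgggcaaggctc
The motifs were GCGTG, the core bound by AHR together with its partner ARNT; TGACNNNGC, known as the antioxidant response element; AGGTCA, the hexamer recognized by many nuclear receptors; and TATAAA, the TATA box. In *Ces2a* the nuclear receptor hexamer lay 226 bases before the start, and the windows of the other 3 genes held no match. Of 64 windows of members, 18.8% held the AHR core, against 28.2% of all 32851 windows in the RefSeq table. The antioxidant element was found in 3.12% of the members' windows and 10.2% of all, the hexamer in 20.3% and 14%, and the TATA box in 17.2% and 12.4%.

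The aldehyde dehydrogenases took the largest share of the members' counts, with a sum of 1471 ± 60.6 CPM (SD, n = 4) in the KO, 2094 ± 136 (SD, n = 3) in the WT and 1271 ± 8.06 (SD, n = 4) in the KI libraries. Against WT, 5 of the 16 members were higher and 6 lower in the KO, while 1 was higher and 8 lower in the KI. These were 68.8 and 56.2%, against 55.1 and 42.3% of all genes tested. With library totals the KO counts became 7 higher and 3 lower, where 72.8% of all called genes were higher. Much of the difference in the sum came from *Aldh1a1*, which oxidizes retinaldehyde to retinoic acid. It was at 520.0, 395, 488 and 399.9 CPM in the KO, 1116, 1030.1 and 762 in the WT and 416, 416, 401 and 462 in the KI libraries. WT 8 was the lowest of the WT libraries, yet still above all libraries of both edited lines. The log2 fold change of *Aldh1a1* against WT was -1.12 (SE 0.17, edgeR's adjusted p = 0.00024) in the KO and -1.20 (SE 0.16, edgeR's adjusted p = 0.000103) in the KI. Without it, the ALDH sum was 1019.8 ± 16.6 CPM in the KO, 1124 ± 77.5 in the WT and 847 ± 29.1 in the KI libraries (SD, n = 4, 3 and 4). *Aldh1a7*, its neighbour and close relative on chromosome 19, overlapped between KO (53.2 ± 8.11 CPM) and WT (54.0 ± 14.1) and was lower in the KI (27.2 ± 2.75; log2 fold change -0.99 (SE 0.18, edgeR's adjusted p = 0.00092)).

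Per kilobase of exon, which allows levels of different genes to be compared, *Aldh1a1* ranked first of the 16 in each group, with 91.3 CPM per kb in the KO, 196 in the WT and 85.8 in the KI. In the WT it was followed by *Aldh3b1* (98.2), *Aldh2* (48.1) and *Aldh9a1* (29.6), and *Aldh3a1* was last (0.151). In the KO *Aldh3a1* reached 22.6 CPM per kb, close to *Aldh9a1* (23.2) and *Aldh3b1* (23.9), whereas *Aldh5a1* was last (0.675). In the KI the last place was held by *Aldh1b1* (0.0554).

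**Figure D3:**
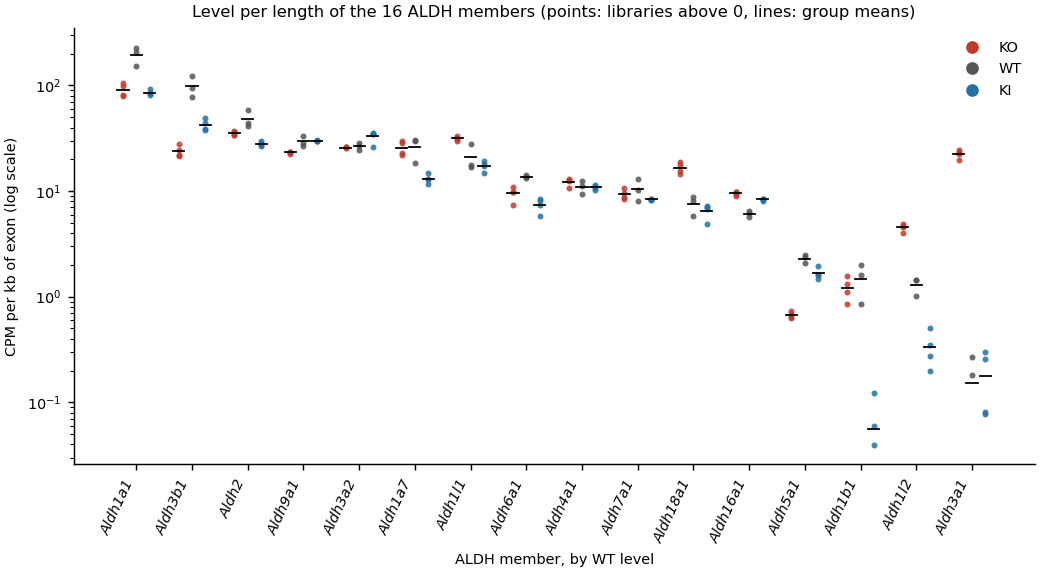
Level of the 16 ALDH genes in CPM per kilobase of exon, on a logarithmic axis; points are libraries with a value above 0 and lines are group means of KO, WT and KI. *Aldh1a1* is at the top in every group, and *Aldh3a1* moves from the lowest mean in the WT to the middle of the family in the KO.

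*Aldh3a1*, which oxidizes aromatic and lipid-derived aldehydes and is a classical AHR target, showed the largest rise of all ALDH members. The KO libraries held 45.3, 38, 43.9 and 48.0 CPM, the WT libraries 0, 0.525 and 0.354 and the KI libraries 0.503, 0.579, 0.157 and 0.152. WT and KI libraries overlapped near the limit of detection, and the KO libraries lay far above. Against the KI the log2 fold change in the KO was 6.96 (SE 0.25, edgeR's adjusted p = 1.64e-11). Its neighbour on chromosome 11, *Aldh3a2*, which acts on long-chain fatty aldehydes, overlapped between KO (145 ± 2.17 CPM) and WT (149.8 ± 10.6), and had 185 ± 24.7 CPM in the KI. It was lower in the KO than in the KI (-0.34 (SE 0.10, edgeR's adjusted p = 0.00755)) and, with library totals alone, also called higher than WT in the KO (0.34). Under library totals *Aldh3a2* was called higher than WT in the KI as well. In contrast, *Aldh3b1*, an enzyme for lipid aldehydes, was lower in both edited lines: the WT libraries held 252, 192 and 158 CPM, the KO libraries 56.8, 44.9, 49.6 and 44.3 and the KI libraries 78.0, 89.4, 79.6 and 101. No group overlapped another, and the log2 fold changes against WT were -2.06 (SE 0.16, edgeR's adjusted p = 3.23e-06) in the KO and -1.21 (SE 0.17, edgeR's adjusted p = 0.000122) in the KI.

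Both 10-formyltetrahydrofolate dehydrogenases, which feed the folate cycle, were higher in the KO, the mitochondrial one by more. *Aldh1l2*, the mitochondrial enzyme, was at 30.2, 36.3, 34.5 and 35.4 CPM in the KO, 7.58, 10.7 and 10.7 in the WT and 2.60, 1.49, 2.06 and 3.83 in the KI libraries. The 3 groups did not overlap, and the log2 fold changes against WT had opposite signs, 1.80 (SE 0.17, edgeR's adjusted p = 9.06e-06) in the KO and -1.96 (SE 0.29, edgeR's adjusted p = 0.000204) in the KI. *Aldh1l1*, the cytosolic one, averaged 143 ± 7.47 CPM in the KO and 94.0 ± 28.1 in the WT libraries, a log2 fold change of 0.58 (SE 0.17, edgeR's adjusted p = 0.0138) that was 0.88 without WT 8 and 0.47, no longer called, without WT 7. *Aldh18a1*, the first enzyme of proline synthesis, was higher in the KO (62.6, 71.5, 59.0 and 76.7 CPM) than in the WT (23.8, 32.7 and 35.4), with a log2 fold change of 1.12 (SE 0.17, edgeR's adjusted p = 0.000224), and at 29.3, 28.6, 27.3 and 19.9 CPM in the KI libraries, which overlapped the WT. *Aldh4a1*, which acts in proline breakdown, passed the test in none of the 3 comparisons (log2 fold changes of 0.14, -0.02 and 0.18), except with library totals in the KO against WT (0.54).

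*Aldh1b1*, a mitochondrial ALDH, was at 4.55, 3.67 and 1.95 CPM in the WT and 3.62, 1.95, 2.55 and 3.06 in the KO libraries, which overlapped, and at 0.280, 0.138, 0 and 0.0912 in the KI libraries, far below both, with a log2 fold change against WT of -4.70 (SE 0.68, edgeR's adjusted p = 0.000165). *Aldh5a1*, which oxidizes succinic semialdehyde, fell to 3.56, 4.15, 3.90 and 3.64 CPM in the KO from 13.9, 11.7 and 13.3 in the WT, a log2 fold change of -1.79 (SE 0.16, edgeR's adjusted p = 7.85e-06). Its fall in the KI (-0.47 (SE 0.17)) was called at an adjusted p of 0.0364 and was lost in 5 of the 7 fits that left out a library, with library totals (-0.14) and without the filter on low counts (-0.46). *Aldh2*, the main acetaldehyde dehydrogenase, was lower in the KO (182 ± 7.00 CPM) and in the KI (143 ± 6.57) than in the WT (247 ± 46.1), with log2 fold changes of -0.46 (SE 0.13, edgeR's adjusted p = 0.0135) and -0.78 (SE 0.14, edgeR's adjusted p = 0.000929); without a library the former ranged from -0.53 to -0.27, the smallest without WT 8, and with library totals it was -0.07 and not called. *Aldh6a1*, of valine breakdown, was likewise lower in both (log2 fold changes -0.55 and -0.89), in the KO not with library totals (-0.14). *Aldh9a1*, of carnitine synthesis, had a small fall in the KO of -0.37 (SE 0.11, edgeR's adjusted p = 0.0177), which was not called without KO 7 (-0.35) and whose sign turned with library totals (0.03). *Aldh16a1* was higher in the KO and KI (log2 fold changes 0.62 and 0.46; the latter, at 0.40, was not called without WT 7), and *Aldh7a1*, of lysine breakdown, was called in no comparison, except in the KI without WT 5-6 (-0.47).

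**Figure D4:**
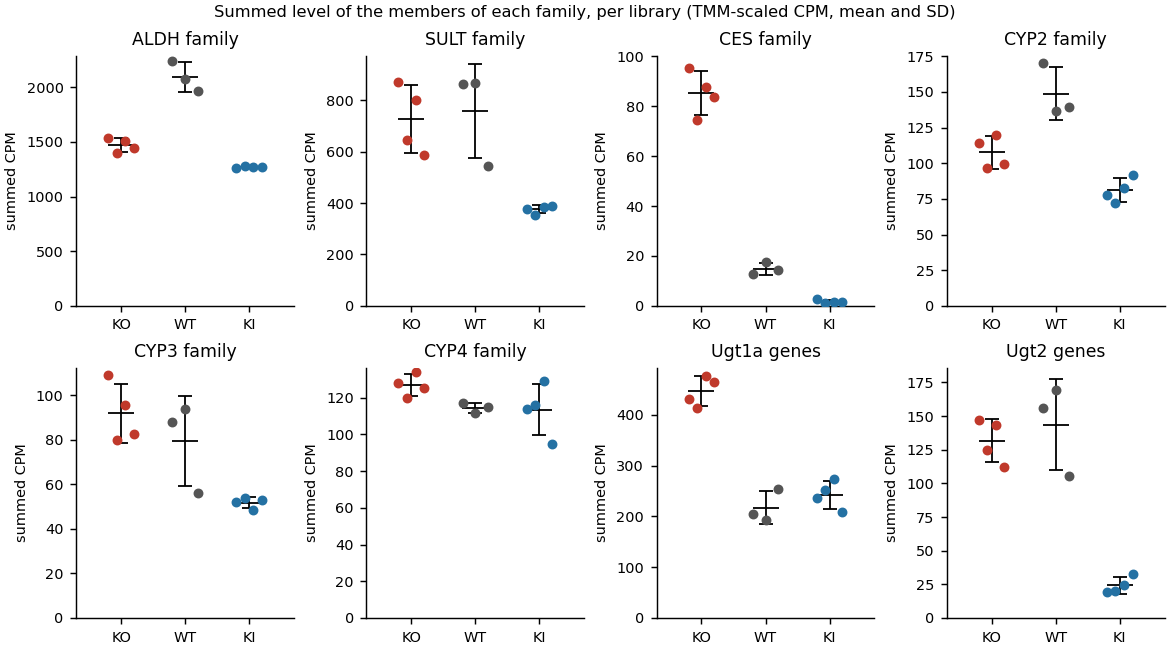
Summed CPM of the ALDH, SULT, CES, CYP2, CYP3, CYP4, *Ugt1a* and *Ugt2* members in each library (points), with the mean and SD of the KO (n = 4), WT (n = 3) and KI (n = 4) groups. The CES and *Ugt1a* sums are highest in the KO, and the *Ugt2*, SULT and CES sums lowest in the KI.

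*Cyp1b1*, which oxidizes oestradiol and polycyclic hydrocarbons, was the single CYP1 member. It was low but higher in the KO, at 2.33, 2.61, 1.83 and 2.44 CPM, against 0.312, 0.323 and 0.744 in the WT and 0.196, 0.276, 0.523 and 0 in the KI libraries. The KO libraries did not overlap the others, with a log2 fold change against WT of 2.28 (SE 0.43, edgeR's adjusted p = 0.00103). *Cyp1b1* is a target of AHR, and the 250 bases before its start (RefSeq, GRCm38.p6, chr17:79715062-79715311, minus strand, 5′ to 3′) are shown with a match to GCGTG on the opposite strand, which reads CACGC here, in capitals. It lay 76 bases before the start. The window of *Ugt1a6a*, a gene of the AHR battery described below, held no motif match, and *Aldh3a1* had no window.
Cyp1b1: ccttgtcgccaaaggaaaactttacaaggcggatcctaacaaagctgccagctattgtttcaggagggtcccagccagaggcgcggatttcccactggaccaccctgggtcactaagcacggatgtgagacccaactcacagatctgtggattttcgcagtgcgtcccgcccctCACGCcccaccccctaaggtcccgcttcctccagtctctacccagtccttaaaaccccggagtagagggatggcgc

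Of the 12 CYP2 members tested, 2 were higher and 3 lower in the KO against WT. In the KI 5 were lower and none higher. In both comparisons 41.7% were called, against 55.1 and 42.3% of all genes tested. With library totals 2 were lower and none higher in the KI, where 76.3% of all called genes were higher. *Cyp2s1*, an extrahepatic P450 that accepts retinoids and eicosanoids, was at 43.7, 38.9, 55.9 and 43.8 CPM in the KO, 17.6, 16.6 and 20.6 in the WT and 10.1, 9.04, 7.61 and 9.40 in the KI libraries. The groups stood apart in that order, with log2 fold changes against WT of 1.30 (SE 0.16, edgeR's adjusted p = 5.41e-05) and -1.02 (SE 0.16, edgeR's adjusted p = 0.00035). *Cyp2d22*, a mouse relative of the human drug-oxidizing CYP2D6, was instead lower in both edited lines. It was at 7.12, 4.56, 6.00 and 7.50 CPM in the KO, 41.8, 37.3 and 58.2 in the WT and 18.7, 17.6, 26.6 and 23.2 in the KI libraries, again with no overlap, and fell by log2 fold changes of -2.88 (SE 0.21, edgeR's adjusted p = 1.58e-06) and -1.09 (SE 0.19, edgeR's adjusted p = 0.000637). Its neighbour on chromosome 15, *Cyp2d26*, had its counts mostly in the KO, the libraries through which it became a member. The KO libraries held 87, 54, 76 and 147 counts of it, the WT libraries 0, 2 and 0 and the KI libraries 0, 17, 11 and 7, and the ratio of KO to WT was 93.9 with a 95% counting interval from 25.8 to 778.

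The neighbours *Cyp2j6* and *Cyp2j5*, epoxygenases of polyunsaturated fatty acids, were both lower in the KO. *Cyp2j6* was at 34.8, 29.6, 35.6 and 26.2 CPM in the KO, 86.3, 64.1 and 46.6 in the WT and 36.9, 36.1, 38 and 47.3 in the KI libraries; WT 8 was the lowest WT library and overlapped the KI. Its log2 fold change was -1.08 (SE 0.19, edgeR's adjusted p = 0.000798) in the KO. The value in the KI was -0.73 (SE 0.19, edgeR's adjusted p = 0.00766), was -0.48 without WT 5-6 and -0.93 without WT 8, and was not called with library totals (-0.37). *Cyp2j5* was at 0.196, 0.0592, 0.150 and 0.322 CPM in the KO and 1.78, 1.17 and 0.779 in the WT libraries, a log2 fold change of -2.73 (SE 0.63, edgeR's adjusted p = 0.00328). The 6 *Cyp2c* genes, which oxidize drugs and arachidonic acid, summed to 20.6 ± 3.26 CPM in the KO, 16 ± 5.95 in the WT and 8.34 ± 1.09 in the KI libraries (SD), mostly *Cyp2c68*, picked after its values were seen; 4 of them share 7.82 to 34.4% of their exonic 100-base windows with other genes, so that their counts may be split.

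Among the CYP3 genes, *Cyp3a13* had the most counts, at 108, 79.2, 95.2 and 82.3 CPM in the KO, 83.7, 88.3 and 53.9 in the WT and 50.5, 52.6, 47.5 and 52.0 in the KI libraries. KO and WT overlapped, although the KO was called higher with library totals (0.69), while all KI libraries lay below them. Its log2 fold change in the KI against WT was -0.57 (SE 0.17, edgeR's adjusted p = 0.0149). The call was lost without WT 5-6 or WT 7 (-0.49 to -0.44) and with library totals (-0.22). Against the KO the KI was lower as well (0.85 (SE 0.10, edgeR's adjusted p = 5.32e-06) for KO against KI). *Cyp3a16*, known as a fetal liver form, was nearly lost in the KO, with 0, 5, 2 and 0 counts there, 87, 133 and 55 in the WT and 53, 41, 33 and 33 in the KI libraries. The groups did not overlap, and the log2 fold changes against WT were -6.17 (SE 0.79, edgeR's adjusted p = 7.27e-05) in the KO and -1.74 (SE 0.38, edgeR's adjusted p = 0.00294) in the KI.

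The CYP4 enzymes hydroxylate fatty acids and eicosanoids at or near the end of the chain. Their summed level was 127 ± 5.97 CPM in the KO, 114 ± 2.64 in the WT and 114 ± 14.1 in the KI libraries (SD), although single members differed by large factors. *Cyp4a12a*, a fatty acid omega-hydroxylase, was at 30.5, 28.3 and 19.4 CPM in the WT and 32.1, 30.1, 39.5 and 27.9 in the KI libraries, which overlapped, and at 0.252, 0.207, 0 and 0 in the KO libraries. *Cyp4a12b* was at 11.6, 9.68 and 7.72 CPM in the WT, 16.8, 18.4, 20.5 and 10.8 in the KI and 0.0841, 0, 0 and 0.0690 in the KO libraries. Both were thus all but absent in the KO, with log2 fold changes against WT of -7.86 (SE 0.52, edgeR's adjusted p = 9.34e-07) and -7.77 (SE 0.50, edgeR's adjusted p = 7.12e-07). In the KI, *Cyp4a12b* was higher than in the WT (0.79 (SE 0.23, edgeR's adjusted p = 0.0139)) and *Cyp4a12a* did not pass the test (0.31 (SE 0.18, edgeR's adjusted p = 0.187)), except with library totals. Both genes share about 36% of their exonic windows (35.8 and 36.2%), so that reads may be split between them, but their sum showed the same order, with 0.336, 0.207, 0 and 0.0690 CPM in the KO, 42.1, 38 and 27.2 in the WT and 48.9, 48.5, 60.0 and 38.8 in the KI libraries. The nearby *Cyp4a32*, a member through the KI libraries alone, had no count in the KO. At a floor of 3 counts per library, that was at least 8.24-fold below the WT and at least 4.44-fold below the KI. The WT libraries held 5, 7 and 43 counts, and without WT 8 the bound against WT was 3.08-fold.

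Of the 8 CYP4 members tested in the KO against WT, 3 were higher and 3 lower, or 75%, against 55.1% of all genes tested. Beside the *Cyp4a12* genes, *Cyp4f13* was lower (-0.76), and *Cyp4b1*, *Cyp4f14* (1.69) and *Cyp4v3* were higher. Both *Cyp4f* genes were picked after their values were seen. With library totals *Cyp4f13* lost its call in the KO, and the CYP4 calls became 4 higher and 2 lower, where 72.8% of all called genes were higher. *Cyp4v3*, the relative of a human enzyme of ocular fatty acid metabolism, was at 79.6, 68.2, 82.1 and 66.9 CPM in the KO, 31.8, 26.1 and 32.3 in the WT and 20.6, 18.7, 20.1 and 14.4 in the KI libraries. *Cyp4b1*, which also activates certain protoxins, was at 14.5, 12.4, 12.1 and 11.9 CPM in the KO, 6.06, 6.33 and 4.96 in the WT and 1.87, 2.37, 3.97 and 1.28 in the KI libraries. In both genes the 3 groups did not overlap. *Cyp4v3* had log2 fold changes against WT of 1.28 (SE 0.13, edgeR's adjusted p = 2.09e-05) in the KO and -0.70 (SE 0.16, edgeR's adjusted p = 0.00405) in the KI, and *Cyp4b1* of 1.12 (SE 0.17, edgeR's adjusted p = 0.000256) and -1.28 (SE 0.33, edgeR's adjusted p = 0.00828); the KI values of both were not called with library totals (-0.38 and -0.92). *Cyp4f16*, of the *Cyp4f* leukotriene hydroxylases on chromosome 17, was called higher in the KI (0.50 (SE 0.15, edgeR's adjusted p = 0.0176)). It lost the call without KI 6 or without WT 5-6, where the value was 0.44 to 0.46. With library totals it was also higher in the KO (0.64). *Cyp4f37*, a member through the KO libraries alone, had no count in the WT libraries and 26, 19, 0 and 12 in the KO, which was at least 3.29-fold higher. KI 6 held 35 counts of it and the other KI libraries none.

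The FMO enzymes, which oxidize nitrogen and sulfur atoms of drugs, were rare in all groups, none above 3.50 CPM in a library. *Fmo1* was at 1.54, 0.740, 1.41 and 0.575 CPM in the KO, 1.43, 2.99 and 0.779 in the WT and 0.0559, 0.0551, 0.105 and 0 in the KI libraries, and fell in the KI by a log2 fold change of -4.88 (SE 0.80, edgeR's adjusted p = 0.000387). *Fmo5* differed between KO (1.45 ± 0.498 CPM) and KI (2.94 ± 0.610), with -1.02 (SE 0.30, edgeR's adjusted p = 0.00876). Against WT its value in the KO was -0.92 (SE 0.37, edgeR's adjusted p = 0.0525), and it was called lower by DESeq2, in 1 fit over all libraries and without KO 7 or WT 7, while *Fmo2* passed no test.

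The UGT genes fell into a *Ugt1a* and a *Ugt2* group, which are described separately. The 6 *Ugt1a* members, first exons of one locus on chromosome 1 joined to shared last exons, summed to 430.5, 414, 477 and 465 CPM in the KO, 205, 192 and 254 in the WT and 237, 252, 274 and 209 in the KI libraries. The KO libraries were all above the others, while WT and KI overlapped. Because 50.4 to 70.9% of the exonic windows of these genes are shared, the split of reads between them is uncertain and the sum is the firmer value. *Ugt1a7c* was at 157, 104, 148 and 114 CPM in the KO, 26.9, 56.3 and 33.6 in the WT and 71.0, 90.3, 103 and 74.2 in the KI libraries, higher than WT in both lines (log2 fold changes 1.72 (SE 0.25, edgeR's adjusted p = 0.000209) and 1.11 (SE 0.24, edgeR's adjusted p = 0.00248)). *Ugt1a6a*, which conjugates small phenols, was at 171, 97.3, 181 and 109 CPM in the KO, 50.9, 78.0 and 72.3 in the WT and 40.8, 38.5, 59.5 and 41.2 in the KI libraries. Its near copy *Ugt1a6b* was at 76.8, 198, 116 and 219.8 CPM in the KO, 118, 38.8 and 138 in the WT and 116, 109, 108 and 87.7 in the KI libraries. Within the KO, *Ugt1a6b* was high where *Ugt1a6a* was low. *Ugt1a6a* had log2 fold changes against WT of 1.03 (SE 0.24, edgeR's adjusted p = 0.00369) in the KO and -0.58 (SE 0.19, edgeR's adjusted p = 0.0267) in the KI. The call in the KI was lost in 4 of the 7 fits without a library (-0.535 to -0.45) and with library totals (-0.25). *Ugt1a6b* was not called.

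The 6 *Ugt2* members glucuronidate steroids and bile acids. Their sum was 147, 125, 143 and 112 CPM in the KO, 156, 169.5 and 105 in the WT and 19.3, 19.9, 24.7 and 32.6 in the KI libraries, with no overlap of the KI and the others. *Ugt2b35* was at 4.71, 2.72, 3.93 and 2.23 CPM in the KO, 8.74, 8.84 and 4.99 in the WT and 0.503, 0.386, 0.915 and 1.19 in the KI libraries, with log2 fold changes against WT of -1.17 (SE 0.30, edgeR's adjusted p = 0.00656) and -3.33 (SE 0.37, edgeR's adjusted p = 2.73e-05). *Ugt2b34*, *Ugt2b36* and *Ugt2b5*, picked after their values were seen, are its neighbours with more counts. *Ugt2b34* was at 89.8, 85.9, 97.6 and 77.0 CPM in the KO, 92.9, 101 and 64.9 in the WT and 10.3, 8.24, 12.6 and 15.0 in the KI libraries. Its KO and WT libraries overlapped, and the KI libraries were all below them, with a log2 fold change of -2.90 (SE 0.21, edgeR's adjusted p = 1.19e-06) in the KI and of 0.00 (SE 0.16) in the KO. *Ugt2b36* and *Ugt2b5* were lower in the KI as well, by log2 fold changes of -1.99 and -2.73, and higher in the KO than in the KI by 1.64 and 2.70. *Ugt2b5* shares 24.7% of its windows with other genes.

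Sulfotransferases took, after the ALDH genes, the largest share of the counts, with 726 ± 133 CPM in the KO, 758 ± 184 in the WT and 376 ± 16.5 in the KI libraries (SD, n = 4, 3 and 4). *Sult1d1*, which sulfates catecholamines and lies beside the *Ugt2* genes on chromosome 5, was at 357, 264, 347 and 244 CPM in the KO, 374, 518 and 245 in the WT and 98.7, 78.7, 96.8 and 137 in the KI libraries. The WT libraries differed widely and overlapped the KO (which was called lower without WT 8, at -0.55), but all KI libraries were lower. Its log2 fold change against WT was -0.35 (SE 0.24, edgeR's adjusted p = 0.229) in the KO and -1.89 (SE 0.24, edgeR's adjusted p = 6.52e-05) in the KI. *Sult1a1*, for phenols, was at 310.4, 219.9, 257 and 201 CPM in the KO, 318, 243 and 198 in the WT and 118, 118, 137 and 126 in the KI libraries, and was likewise lower in the KI (-1.02 (SE 0.16, edgeR's adjusted p = 0.000328)) and not called in the KO (-0.05). *Sult1c2* passed no test, but was called higher in both lines with library totals (0.91 and 0.65) and without WT 5-6 (0.78 and 0.58). *Sult2b1*, which sulfates cholesterol and hydroxysteroids, was higher in the KO, at 5.97, 7.34, 6.87 and 6.08 CPM against 1.11, 0.646 and 1.03 in the WT and 1.59, 1.05, 1.31 and 1.31 in the KI libraries, with a log2 fold change against WT of 2.80 (SE 0.26, edgeR's adjusted p = 9.92e-06). *Sult1b1*, for thyroid hormones and picked after its values were seen, was lower in both lines (log2 fold changes -1.79 and -2.09).

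Set side by side, the comparisons of KO and KI with the same WT libraries gave 7 members called higher in the KO and lower in the KI, 11.9% of the 59 members tested in both, against 1.43% of the 13068 genes tested in both. They were *Aldh1l2*, *Ces2e*, *Ces2g*, *Cyp2s1*, *Cyp4b1*, *Cyp4v3* and *Ugt1a6a*. A single member, *Cyp4a12b*, was lower in the KO and higher in the KI, or 1.69%, near the 1.73% of all genes. All 8 were called in the direct comparison of KO and KI, from -8.55 for *Cyp4a12b* to 5.69 for *Ces2g*. Picking them by opposite calls against WT made such a call likely, so that it adds no separate support. With library totals, 5 members were higher in the KO and lower in the KI (*Aldh1l2*, *Ces2e*, *Ces2g*, *Cyp2s1* and *Ugt2b34*), and both *Cyp4a12* genes were lower in the KO and higher in the KI. The share of all genes in these patterns was not counted under library totals, where 72.8% of all called genes were higher in the KO and 76.3% in the KI. These counts can therefore not be set against genes in general. The 21 members outside the naming rule had log2 fold changes between -1.79 and 1.69 in the KO and between -2.90 and 0.79 in the KI; the rule had taken out the largest changes.

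**Figure D5:**
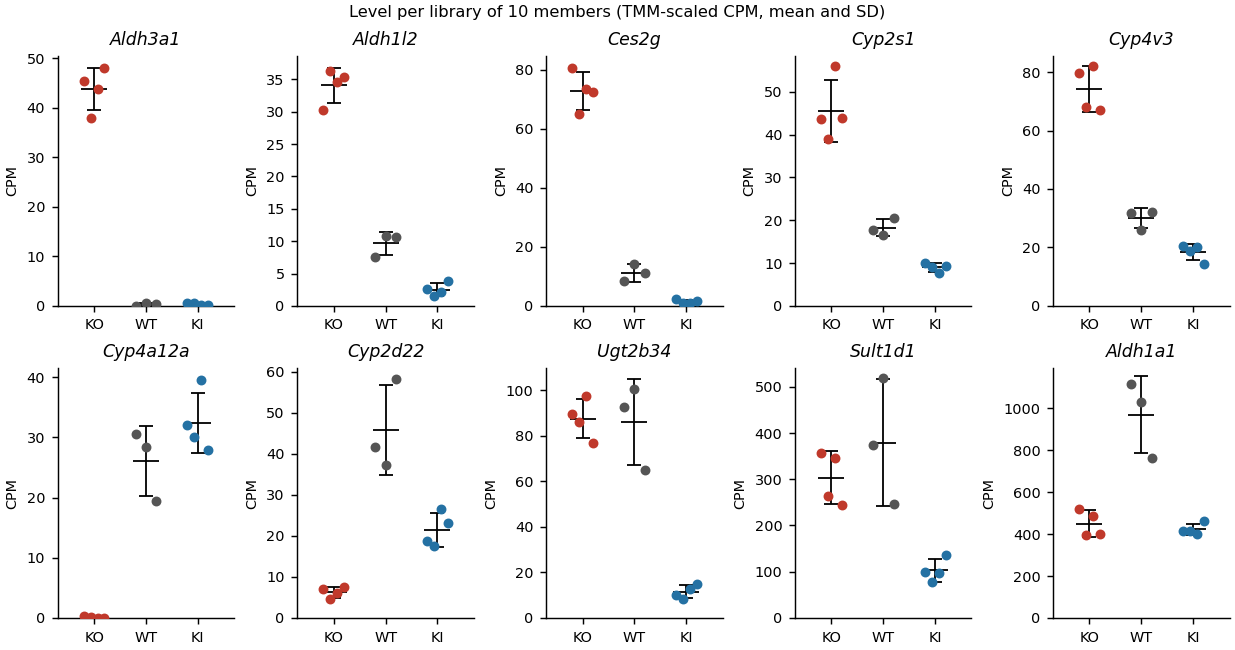
CPM per library (points) with the group mean and SD for 10 members in the KO (n = 4), WT (n = 3) and KI (n = 4), chosen after the values were seen to show the main patterns. *Aldh3a1*, *Aldh1l2*, *Ces2g*, *Cyp2s1* and *Cyp4v3* are highest in the KO, *Cyp4a12a* is near 0 there, *Cyp2d22* and *Aldh1a1* are highest in the WT, and *Ugt2b34* and *Sult1d1* are lowest in the KI.

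Many members are neighbours in the genome: 45 of the 68 lie in 13 clusters in which consecutive members are within 500 kb. On chromosome 5, *Ugt2b34*, *Ugt2b1*, *Ugt2b35*, *Ugt2b36*, *Ugt2b5*, *Ugt2a3*, *Sult1b1* and *Sult1d1* form the largest. None of its members was higher and 6 were lower in the KI against WT (log2 fold changes of all tested from -3.33 to -1.44), where 30 of the 61 members and 21% of all genes tested were lower, whereas in the KO none was higher and 2 were lower, against 28.4% of all genes. In the chromosome 8 cluster of *Ces2* genes, 3 were higher in the KO and 3 lower in the KI, against 26.7 and 21% of all genes tested. *Ces2a*, which was among those higher in the KO, was a member through the KO libraries alone. Neighbours also differed in sign. On chromosome 4 the *Cyp4a12* genes were lower and *Cyp4b1* higher in the KO.

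Genes that work with the P450, UGT and SULT enzymes were described from lists of names. Of 10 partners and suppliers of cofactors, 2 were higher and 5 lower in the KO, and 2 higher and 6 lower in the KI against WT, or 70 and 80%, against the 55.1 and 42.3% called among all genes tested, with median log2 fold changes of -0.44 and -0.48, against -0.03 and -0.02 over all genes tested. *Por*, the reductase that passes electrons to microsomal P450, was lower in both, by log2 fold changes of -0.57 (SE 0.16, edgeR's adjusted p = 0.0103) and -0.47 (SE 0.15, edgeR's adjusted p = 0.0249). *Cyb5a*, cytochrome b5, averaged 760.4 ± 131 CPM in the KO, 1528 ± 438 in the WT and 511 ± 94.9 in the KI libraries, and *Cyb5b*, its form in the outer mitochondrial membrane, was higher in both lines (0.80 and 0.75). *Ugp2* and *Ugdh*, which make UDP-glucuronic acid, the substrate of the UGT enzymes, were lower in both lines, *Ugp2* by -1.50 (SE 0.20, edgeR's adjusted p = 0.000125) and -1.83 (SE 0.20, edgeR's adjusted p = 2.32e-05) and *Ugdh* by -0.80 and -0.61. *Slc35d1*, which carries UDP-glucuronic acid into the endoplasmic reticulum, was higher in the KO (0.53) and lower in the KI (-0.49). With library totals the lower calls of *Por* were lost in both lines (-0.18 and -0.17), as were those of *Ugdh* (-0.27), *Slc35d1* (-0.16) and *Pgrmc1*, a haem-binding partner of P450 (-0.24), in the KI. The calls of *Por* and *Slc35d1* in the KI were also lost in 4 and 3 of the 7 fits that left out a library.

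Of 12 tested receptors and transcription factors that govern such enzymes, 6 were higher and 4 lower in the KO, and 1 higher and 3 lower in the KI against WT (medians 0.40 and -0.12). These were 83.3 and 33.3% of those tested, against 55.1 and 42.3% of all genes. *Hnf4a* averaged 275 ± 12.4 CPM in the KO, 107 ± 26.7 in the WT and 133 ± 8.00 in the KI libraries, with a log2 fold change in the KO of 1.35 (SE 0.17, edgeR's adjusted p = 6.29e-05). *Cebpa* was higher in the KO too (1.70 (SE 0.15, edgeR's adjusted p = 7.44e-06)). *Nr1i2*, which codes for PXR, averaged 17.9 ± 3.47 CPM in the KO, 22.6 ± 4.81 in the WT and 3.45 ± 1.22 in the KI libraries, and fell in the KI by a log2 fold change of -2.71 (SE 0.26, edgeR's adjusted p = 8.62e-06). Its partner *Rxra* was also lower in the KI (-0.94), a call lost with library totals (-0.65). *Ahr* was lower in the KO (-1.37 (SE 0.15, edgeR's adjusted p = 2.78e-05)), and *Ppara*, the receptor under which *Cyp4a* genes are commonly induced, was lower in both the KO (-1.81 (SE 0.18, edgeR's adjusted p = 1.64e-05)) and the KI (-1.12 (SE 0.20, edgeR's adjusted p = 0.000813)). *Nr1i3*, which codes for CAR, averaged at most 0.106 CPM in a group and was not tested.

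Of 9 genes of the AHR battery, 6 were tested in the KO, of which 4 were higher and 2 lower (median 1.66), where 55.1% of all genes tested were called. The 4 were *Aldh3a1*, *Cyp1b1* and *Ugt1a6a*, which are members, and *Nqo1*, a quinone reductase that averaged 0.910 ± 0.344 CPM in the KO and had no count in the WT, at least 7.63-fold higher. *Gsta1* (-1.78) and *Tiparp* (-0.46, lost with library totals at -0.03 and in 4 of the 7 fits without a library) were lower, and *Cyp1a1*, *Cyp1a2* and *Ahrr* were too low to test. In the KI against WT, 2 of the 4 tested were lower and none higher (median -0.29), where 42.3% of all genes were called.

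Of 25 tested enzymes for alcohols, aldehydes and carbonyls outside the ALDH family, 6 were higher and 8 lower in the KO (median -0.08), or 56%, near the 55.1% of all genes. In the KI 1 was higher and 11 lower of 24 (median -0.45), or 50% against 42.3%, and in KO against KI 15 were higher and 4 lower of 25 (median 0.50), or 76% against 54%. With library totals the lower calls of *Adh5*, *Akr1c19* and *Rdh10* in the KO and of *Cbr1* in the KI were lost. *Adh1*, the main alcohol dehydrogenase of liver, averaged 30.2 ± 2.52 CPM in the KO, 16.2 ± 3.44 in the WT and 3.46 ± 0.359 in the KI libraries, with log2 fold changes against WT of 0.88 (SE 0.16, edgeR's adjusted p = 0.000914) and -2.23 (SE 0.19, edgeR's adjusted p = 4.33e-06). *Adh7*, which oxidizes retinol, and *Akr1d1*, a reductase of bile acid synthesis, were higher in the KO (1.76 and 3.03). *Cbr4*, a quinone reductase of mitochondria, was lower in both lines (-2.60 in the KO and -1.90 in the KI). Of the other enzymes of drug oxidation and conjugation, 3 were higher and 4 lower of 12 tested in the KO, and 0 higher and 3 lower of 11 in the KI (medians -0.28 and -0.26), or 58.3 and 27.3%. With library totals *Ephx2* in the KO (0.01) and *Pon3* in the KI (-0.19) lost their calls. *Hnmt*, which methylates histamine, had the largest fall, to 0.171 ± 0.161 CPM in the KO and 5.21 ± 0.629 in the KI from 27.5 ± 10.2 in the WT.

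Since *Aldh1a1* makes retinoic acid, genes of retinoid handling were described as well. Of 7 tested, 1 was higher and 4 lower in the KO and 0 higher and 2 lower in the KI against WT (medians -0.49 and -0.87), or 71.4 and 28.6%, against 55.1 and 42.3% of all genes. With library totals *Rdh10*, a retinol dehydrogenase, lost its call in the KO (-0.05) and *Stra6* in the KI (-0.59), which was 1 of the 2 there. The call of *Rdh10* in the KO was also lost in 4 of the 7 fits without a library. *Stra6*, the cellular retinol importer, had no count in the KO, at least 516-fold lower than in the WT (42.4 ± 13.4 CPM) and at least 280-fold lower than in the KI (23.0 ± 1.19 CPM). *Rarb*, a receptor gene induced by retinoic acid, had no count in the KO either, at least 17.4-fold lower than in the WT, and *Dhrs3*, a retinaldehyde reductase, was lower in the KO by a log2 fold change of -1.57 (SE 0.14, edgeR's adjusted p = 7.57e-06). *Cyp26b1*, which breaks retinoic acid down, was the gene that was higher in the KO (2.39 (SE 0.49, edgeR's adjusted p = 0.00182)).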

How the data were processed

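The authors deposited one table with the raw count of reads per gene for each of the 11 libraries, counted by their sequencing provider without normalization. The submitters' processing notes name HISAT2, TopHat2, Bowtie2 and StringTie; the genome build and the counting tool are not given in the sources used here. Of 26472 lines, 10 with broken fields were left out, and counts were summed by gene name (24849 genes). Another 11 columns of FPKM, and the authors' own comparisons (log2 fold changes and adjusted p-values), were not used.

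The whole table was fitted with R 4.3.3 and edgeR 4.0.16 (filterByExpr, TMM, robust quasi-likelihood test, adjusted p under 0.05 by Benjamini-Hochberg over all genes tested), with the libraries of the 2 groups compared. On simulated data with 4 against 3 libraries, as for KO and WT (13204 genes), it found 73% of the genes changed by a log2 of 1 and 86.6% of those changed by 2, with 9 false calls. For KI and WT (13315 genes) it found 64.3 and 95.9% with 12 false calls, and for KO and KI (13091 genes) 85.6 and 95.9% with 9. Each simulation changed 200 genes, up and down alike, whereas 42.3 to 55.1% of genes were called in the real comparisons. It therefore does not give the error rates of the real comparisons, nor the effect of scaling on them. DESeq2 1.42.0, library totals, no filter, 1 fit over all libraries, a replicate block and fits without a library were alternatives; tables and figures were made with Python 3.11.15, pandas 2.3.3 and matplotlib 3.10.9. Total counts per library were 29840366 to 38422243; the floor of 3 counts and the 95% intervals of ratios cover counting error only. Exon lengths and 100-base windows shared between genes were taken from GENCODE transcripts of GRCm38.

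The members and gene lists were chosen with earlier results of these data known. Named are 47 members: in each family the 3 most abundant, in each comparison the 5 largest rises and 5 largest falls among called members without overlap, members without a count in a whole group, members called in opposite directions in KO and KI, and all ALDH members; others are named as picked after their values were seen.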

Additional observations from a re-analysis of the deposited data

Results flagged for a closer look

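In each group of 4 libraries, the distance of the highest or lowest library from its nearest neighbour was divided by the group's range, for the 47 named members and *Txndc5* in the KO and KI in 95 groups; *Cyp4a32* in the KO, at 0 throughout, has no range. A library stood apart in 9 groups. In 3 of them a single library held counts, which fixes the share at 1, and 6 were among the other 92, where chance gives about 1 in 20, or 4.6. In the KI, *Aldh16a1* was lowest in KI 7 (45.8 CPM, the others 47.6 to 47.7, a share of 0.968 of the range), a small difference in size. *Aldh3a2* was lowest in KI 8 (148 CPM, the others 195 to 201, 0.88), *Cyp2j6* highest in KI 8 (47.3 CPM, the others 36.1 to 38, 0.831) and *Ugt1a6a* highest in KI 7 (59.5 CPM, the others 38.5 to 41.2, 0.871). Counts of *Ces2a* were found in KI 8 alone (2 counts, a share of 1), those of *Fmo2* in KI 5 alone (7 counts, 1) and those of *Cyp4f37* in KI 6 alone (35 counts, 1). In the KO, *Aldh9a1* was lowest in KO 7 (75.4 CPM, the others 79.2 to 79.9, 0.844) and *Fmo5* highest in KO 7 (2.19 CPM, the others 1.13 to 1.24, 0.89).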

How the results depend on the processing

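At the depth of these libraries, genes under 1 CPM rest on few counts, and the members not tested in a comparison were too low there. Counts of members called stayed within 1.5 times of those reported under all alternatives run. KO against WT gave 33, with 35 by DESeq2, 35 in 1 fit over all libraries, 37 with library totals, 36 without a filter and 32 to 35 when a library was left out. KI against WT gave 34, with 35, 34, 28, 32 and 29 to 33, and KO against KI 45, with 48, 44, 46, 46 and 44 to 46. Replicate numbers did not pair the libraries throughout. Correlations of deviations ran from -0.383 to 0.503 over 12 same-numbered pairs, and from -0.478 to 0.414 over different-numbered pairs. The highest of all were KO 8 with WT 8 (0.503) and KO 5 with WT 5-6 (0.439). KO 6 with WT 5-6 (-0.107) and KO 7 with WT 7 (0.0714) did not follow them. These mixed values cannot settle whether KO and WT libraries share variation by number, and the main fit used no pairing. With the replicate as a block the counts were 36, 31 and 44, and the sign of *Aldh4a1* in the KI turned to 0.00025. DESeq2 turned that of *Aldh9a1* in the KI to -0.009595. With library totals, signs turned in the KI for *Aldh18a1* (0.087), *Aldh1l1* (0.038) and *Aldh4a1* (0.30), and in the KO for *Aldh1a7* (0.39), *Aldh1b1* (0.16), *Aldh3a2* (0.34), *Aldh7a1* (0.22), *Aldh9a1* (0.031), *Ces2c* (0.23), *Sult1a1* (0.38) and *Sult1d1* (0.088). Of these, *Aldh9a1* in the KO alone had been called; this scaling raised the median of all genes, as given above. Leaving out a library turned signs of uncalled members in the KO, with values from -0.22 to 0.12 for *Aldh1a7*, -0.54 to 0.00026 for *Aldh1b1*, -0.091 to 0.015 for *Aldh3a2*, -0.30 to 0.053 for *Aldh7a1*, -0.35 to 0.092 for *Ces2c* and -0.18 to 0.17 for *Sult1a1*. In the KI the values were -0.39 to 0.012 for *Aldh1l1*, -0.33 to 0.90 for *Aldh3a1*, -0.12 to 0.087 for *Aldh4a1*, -0.049 to 0.10 for *Aldh9a1*, -1.31 to 0.52 for *Cyp4a32*, -0.14 to 0.28 for *Fmo5* and -0.28 to 0.43 for *Ugt1a6b*. The cause of these turns was not tested. In the replicate block, *Aldh5a1* in the KI and *Cyp2j6* in KO against KI lost their call. Tests per table entry were not run, as no named member has several entries.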
